A study of Homo sapiens with 12 samples.

Results

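The 42 genes described here encode the proteins that commit a cell to S phase and copy its DNA, and they were measured in neuroblastoma cells, tumour cells in culture that derive from the sympathetic lineage. They were taken by symbol from an expression table of 58735 genes, by a rule that uses no measured value, though with earlier results of these data known, and all 42 were found. Sorted by function, 4 control entry into S phase, 10 license replication origins, 6 activate the replicative helicase, 6 belong to primase and the replicative polymerases, 5 to the sliding clamp and its loader, 3 to strand binding and fragment joining, 4 to nucleotide supply, and 4 to checkpoint and chromatin assembly. RNA was sequenced from 12 libraries in 4 groups of 3, in a study of TSPYL5, which encodes a histone-binding protein of the TSPY and NAP family. The groups are SK-N-SH cells with a short hairpin RNA against TSPYL5 (titles shL5, genotype TSPYL5 knockdown), SK-N-SH cells with a control hairpin (titles shNC, genotype WT), a second line with the hairpin against TSPYL5, and that line with the control hairpin. No group had a further treatment. The second line is SK_N_BE2 in the titles but SH-SY5Y elsewhere in the labels, and it goes by second line here. The labels do not say whether the 3 libraries of a group came from separate cultures, so p-values speak only of the spread among these libraries, part or all of which may be technical.

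TSPYL5, the gene the hairpin targets, was higher rather than lower in SK-N-SH, against the label, with 17.1, 18.3 and 17.8 FPKM in libraries labelled SK-N-SH knockdown, against 13.1, 13.4 and 12.2 FPKM in those labelled SK-N-SH control. It was lower in the second line, at 13.3, 12.4 and 12.6 FPKM in libraries labelled second line knockdown, against 24.0, 24.4 and 25.8 FPKM in those labelled second line control. The hairpin groups are therefore named by label only. MYCN, an oncogene amplified in a subset of neuroblastomas, averaged 1028 FPKM in libraries labelled SK-N-SH knockdown and 0.0408 FPKM in those labelled SK-N-SH control. It was listed at 0 FPKM in libraries labelled second line knockdown and averaged 1040.4 FPKM in those labelled second line control. As a description over 15856 genes, which are no independent replicates, the correlation of log2(FPKM + 1) between libraries (Pearson's r) was 0.986 to 0.987 for SK-N-SH knockdown with second line control and 0.960 to 0.975 for second line knockdown with SK-N-SH control. Within SK-N-SH it was 0.705 to 0.724 between the libraries labelled knockdown and control, and within the second line 0.692 to 0.721. With the labels as they stand, a within-line comparison cannot be told apart from one between 2 cell lines. Each library held 15425460 to 19249018 reads assigned to genes, and the 42 genes had between 52 and 11879 reads each in a library.

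Replication is prepared in G1, when the origin recognition complex, CDC6 and CDT1 load the ring-shaped MCM2-7 helicase onto DNA, and begins in S phase, when CDC45 and the GINS complex join MCM2-7 to form the active helicase. DNA polymerase alpha with primase then lays primers, the RFC loader places the PCNA clamp, and polymerases delta and epsilon extend the strands. Most of these genes are transcribed late in G1 by E2F factors, which the retinoblastoma protein holds inactive until cyclin-dependent kinases phosphorylate it. In neuroblastoma, MYCN amplification is known to go with fast proliferation.

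Since E2F factors are known regulators of these genes, their promoters were searched for 4 spellings of the E2F motif, TTTCCCGC, TTTGGCGC, TTTCGCGC and TTTGCCGC, on both strands. The window ran from 250 bases before to 50 bases after the RefSeq start on GRCh38.p14, and 37 of the 42 genes had an entry, 7 of them with several starts. At least 1 of these spellings stood in a promoter of 21 of the 37 genes (56.8%), against 3.99% of all 27305 genes and 5.40% of 15842 protein-coding genes. A gene with several starts counted if the promoter of any of them held the motif. The 6 promoters below, 200 bases before to 20 after the start, belong to the 5 genes whose labelled folds differed most between the lines and to TYMS, which passed in neither line. Capitals mark the E2F spellings, and each sequence runs 5′ to 3′ on the gene's strand.
E2F1: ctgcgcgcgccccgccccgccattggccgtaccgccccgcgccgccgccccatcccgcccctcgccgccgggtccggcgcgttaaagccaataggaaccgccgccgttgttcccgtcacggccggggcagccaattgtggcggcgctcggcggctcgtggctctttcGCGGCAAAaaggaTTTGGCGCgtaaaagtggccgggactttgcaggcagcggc
E2F2: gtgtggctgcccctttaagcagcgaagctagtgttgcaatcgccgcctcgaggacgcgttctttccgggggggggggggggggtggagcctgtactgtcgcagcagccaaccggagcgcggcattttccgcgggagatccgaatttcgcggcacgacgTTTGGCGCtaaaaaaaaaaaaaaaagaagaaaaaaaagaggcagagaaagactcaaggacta
CDT1: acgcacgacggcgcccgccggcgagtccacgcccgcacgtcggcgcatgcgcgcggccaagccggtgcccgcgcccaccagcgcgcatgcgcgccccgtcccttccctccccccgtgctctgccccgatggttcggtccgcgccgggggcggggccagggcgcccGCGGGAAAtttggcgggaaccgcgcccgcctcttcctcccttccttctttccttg
MCM3: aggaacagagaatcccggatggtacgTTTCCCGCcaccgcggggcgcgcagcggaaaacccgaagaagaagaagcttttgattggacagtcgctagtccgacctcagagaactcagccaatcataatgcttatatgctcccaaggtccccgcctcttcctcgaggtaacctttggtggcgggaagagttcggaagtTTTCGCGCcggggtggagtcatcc
PRIM1: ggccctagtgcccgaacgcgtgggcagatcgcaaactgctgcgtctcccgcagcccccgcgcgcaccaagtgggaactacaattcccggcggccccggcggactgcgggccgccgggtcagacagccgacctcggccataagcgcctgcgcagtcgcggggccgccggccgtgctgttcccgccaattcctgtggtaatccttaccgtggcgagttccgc
TYMS: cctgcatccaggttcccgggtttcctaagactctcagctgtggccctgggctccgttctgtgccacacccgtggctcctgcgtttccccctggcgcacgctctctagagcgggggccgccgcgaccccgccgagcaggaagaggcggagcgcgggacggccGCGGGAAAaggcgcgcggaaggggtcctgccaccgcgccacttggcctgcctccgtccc
They lie at chr20:33686366-33686585 on the minus strand (E2F1), chr1:23531214-23531433 on the minus strand (E2F2), chr16:88803589-88803808 on the plus strand (CDT1), chr6:52284723-52284942 on the minus strand (MCM3), chr12:56752304-56752523 on the minus strand (PRIM1) and chr18:657453-657672 on the plus strand (TYMS). These RefSeq starts lie 13 to 576 bases from the gene starts in the expression table, with CDT1 the farthest. E2F1 and MCM3 show 2 matches each, E2F2, CDT1 and TYMS 1 each, and PRIM1 none. A match is a description of these letters and not of a bound site, and the absence of one says nothing about other spellings or distances.

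Over the promoters of the 21 genes with matches there were 29, counting overlapping matches on both strands separately, and 22 of them began within 100 bases before the start or after it. The CCAAT box (CCAAT, both strands), a common promoter motif, stood in a promoter of 22 of the 37 genes (59.5%), against 39.7% of all genes and 42.1% of protein-coding genes. The cell cycle homology region, known from genes expressed later, in G2 and M phase (TTTGAA and TTCGAA, both strands), stood in 2 (5.41%), against 19.5% and 17.5%. The E-box CACGTG, a motif of MYC family factors that reads the same on both strands, stood in 4 (10.8%), against 8.77% and 10.9%. Median GC content was 66.0% for these promoters, against 58.3% for all genes and 62.3% for protein-coding genes, and the motif shares were not adjusted for it.

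**Figure D1:**
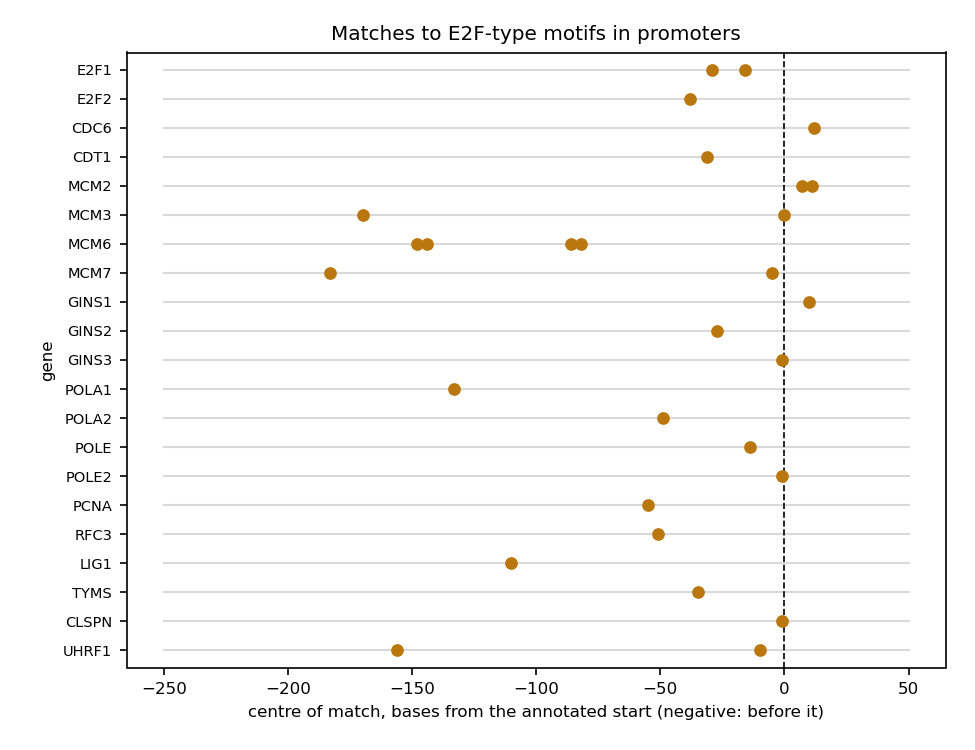
Centres of the matches to the 4 E2F spellings (points) in the promoters of each of the 21 genes that held one, in bases from the RefSeq start (dashed line, negative before it). The matches of UHRF1 lie in promoters of different starts, each placed from its own start. Of the 29 matches, 22 begin within 100 bases before the start or after it.

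In SK-N-SH the replication genes were higher in the libraries labelled knockdown. Of the 42 genes, 40 were higher, none was lower, and TYMS and TK1, both of thymidine nucleotide supply, did not pass (limma on log2(FPKM + 1), Benjamini-Hochberg adjusted p under 0.05 over all 15856 genes tested). In the same comparison 40.7% of all genes tested were called higher and 39.0% lower, so calls in either direction were common, and those of the 42 genes were all on one side. Their median log2 fold was 1.82, against 0.02 over all genes tested. By the ratio of mean FPKM, 38 genes were at least 2-fold and 21 at least 4-fold higher, up to 18.1-fold for E2F2, with LIG1 the smallest of the 40 at 1.53-fold. These ratios were not counted over all genes. On the scale of log2(FPKM + 1), 36 of the 42 genes were called at least 2-fold higher, and 2428 of all 15856 genes tested. For all 40, every library labelled knockdown lay above every library labelled control, which held for 41.6% of all genes. In bulk RNA, a larger share of cells in S phase and more of these transcripts per cell cannot be told apart, and the direction rests on a label that TSPYL5 contradicts in this line.

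In the second line the direction was the opposite. There 40 of the 42 genes were lower in the libraries labelled knockdown, none was higher, and TYMS and TK1 again did not pass, while 40.2% of all genes tested were called lower and 39.9% higher. The median log2 fold of the 42 genes was -1.40, against -0.02 over all genes tested. On the scale of log2(FPKM + 1), 30 of the 42 genes were called at least 2-fold lower, and 2343 of all 15856 genes tested. The ratio of mean FPKM, not counted over all genes, was at least 2-fold lower for 31 genes and at least 4-fold lower for 12, again with E2F2 the largest at 17.1-fold. The smallest was CCNE1, at 1.16-fold (adjusted p = 0.0446), whose libraries overlapped between the groups. CCNE1 lost its call without second line knockdown replicate 1 (adjusted p = 0.134) or 2 (0.0879) and without second line control replicate 2 (0.193) or 3 (0.0889). It also lost it with log2(FPKM + 0.1) (0.0527), with no filter on low values (0.0766), with voom on the recovered reads (0.0513) and in a fit of the 2 groups alone (0.0869). For 39 genes the libraries of the groups did not overlap, against 40.8% of all genes with every library labelled knockdown lower. The SK-N-SH and second line comparisons share no library, but their p-values use the same estimate of the spread, drawn from all 12 libraries.

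**Figure D2:**
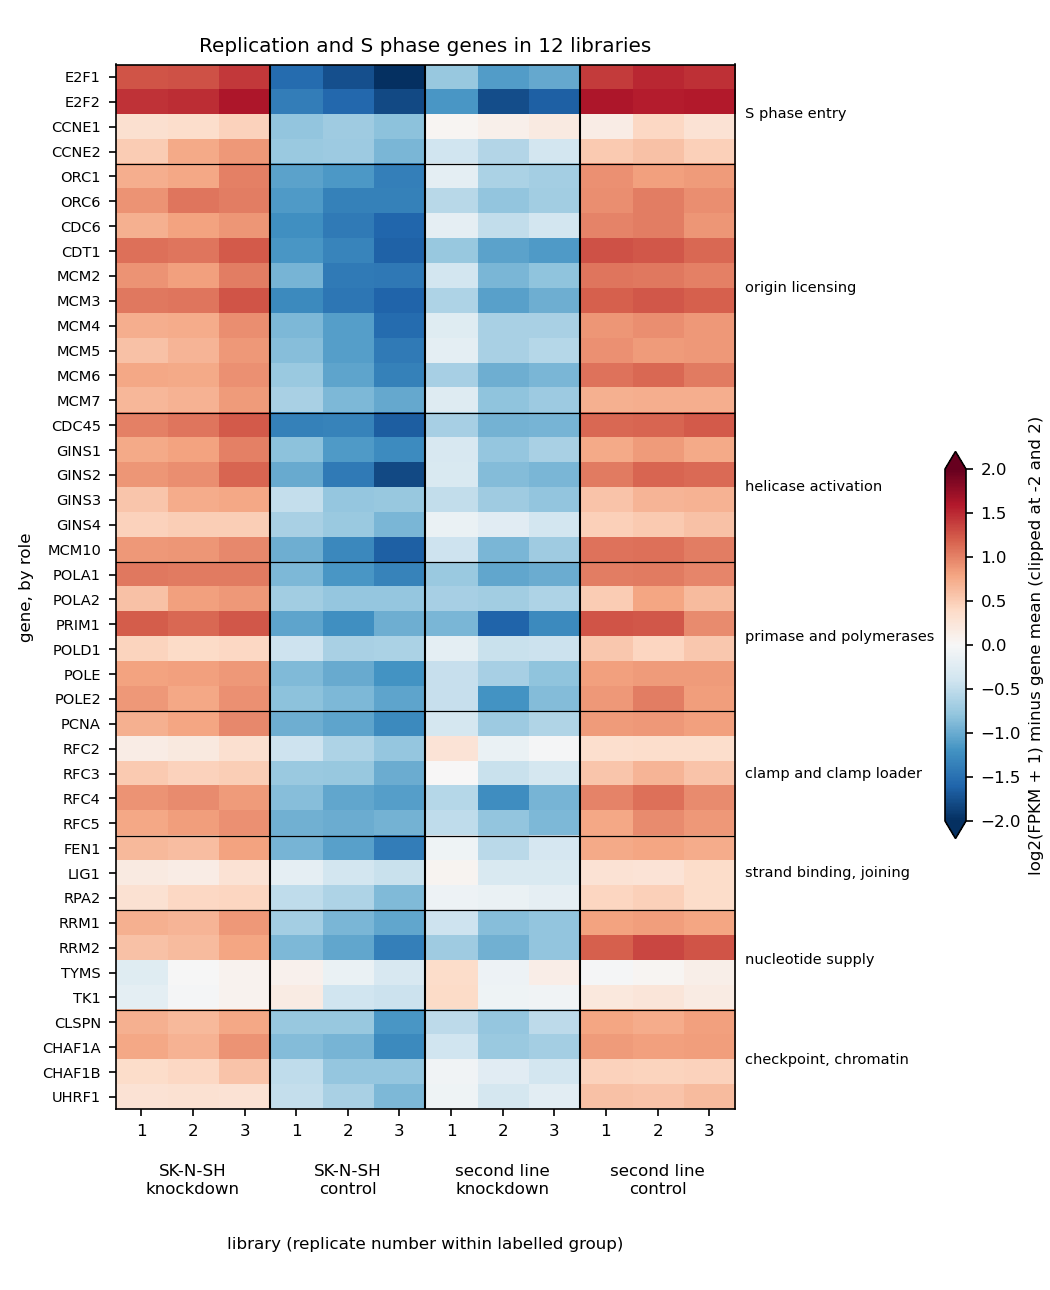
Level of each of the 42 genes (rows, by role) in each of the 12 libraries (columns, by labelled group), as log2(FPKM + 1) minus the gene's mean, with colours clipped at -2 and 2. The columns of SK-N-SH knockdown and of second line control are red and those of SK-N-SH control and second line knockdown blue for nearly every row, and TYMS and TK1 are pale throughout.

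Cell identity markers moved with the same groups. The summed FPKM of 7 noradrenergic markers (PHOX2A, HAND2, GATA3, ISL1, TH, DBH and CHGA) was 1094 to 1181 in libraries labelled SK-N-SH knockdown, against 82.5 to 95.7 in those labelled SK-N-SH control. It was 66.2 to 82.9 in libraries labelled second line knockdown, against 1262 to 1308 in those labelled second line control. TH was at 0 in every library of SK-N-SH control and of second line knockdown. The 8 mesenchymal markers (PRRX1, TWIST1, FN1, COL1A1, POSTN, VIM, AXL and YAP1) went the other way in sum, with 236 to 243 FPKM in libraries labelled SK-N-SH knockdown and 1790 to 2069 in those labelled SK-N-SH control, and 1564 to 1918 FPKM in libraries labelled second line knockdown and 224 to 241 in those labelled second line control. Of the 8, 7 were called lower in libraries labelled SK-N-SH knockdown and higher in libraries labelled second line knockdown, and TWIST1 was the exception, at 126 ± 2.18 FPKM in libraries labelled SK-N-SH knockdown, against 73.0 ± 5.11 in those labelled SK-N-SH control, and 46.9 ± 9.81 FPKM in libraries labelled second line knockdown, against 134 ± 5.67 in those labelled second line control. The noradrenergic state is the neuroblast-like and the mesenchymal state the neural crest-like form of neuroblastoma cells. The part these differences have in the replication genes was not tested. Blood and endothelial markers summed to at most 1.29 FPKM and epithelial markers to at most 1.78 FPKM in any library.

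Of the genes that control entry into S phase, the E2F activators had the largest differences. E2F1, the best known activator (ENSG00000101412, chromosome 20, 33675683 to 33686404, minus strand), stood at 67.5, 68.7 and 76.0 FPKM in libraries labelled SK-N-SH knockdown, against 8.87, 7.50 and 5.60 FPKM in those labelled SK-N-SH control. That was 9.66-fold higher (log2 fold 3.12, SE 0.13, adjusted p = 9.61e-10). E2F1 in the second line had 16.0, 12.3 and 13.1 FPKM in libraries labelled second line knockdown, against 75.0, 80.9 and 78.0 FPKM in those labelled second line control, 5.65-fold lower (log2 fold -2.42, SE 0.13, adjusted p = 8.23e-09). Its libraries did not overlap in either line, and the SK-N-SH control libraries were the lowest of the 12. E2F2, a second activator (ENSG00000007968, chromosome 1, 23506430 to 23531220, minus strand), stood at 13.5, 13.8 and 15.3 FPKM in libraries labelled SK-N-SH knockdown, against 1.03, 0.795 and 0.529 FPKM in those labelled SK-N-SH control (log2 fold 3.10, SE 0.14, adjusted p = 1.76e-09). E2F2 in the second line had 1.36, 0.564 and 0.716 FPKM in libraries labelled second line knockdown, against 15.3, 14.9 and 15.0 FPKM in those labelled second line control (log2 fold -3.12, SE 0.14, adjusted p = 1.53e-09). It was at 1.36 FPKM or less in both low groups, resting on as few as 52 reads, and at 13.5 FPKM or more in both high groups. The 2 cyclin E genes, whose products activate CDK2 at the start of S phase, differed less. CCNE1 had 5.26, 5.36 and 5.87 FPKM in libraries labelled SK-N-SH knockdown, against 1.89, 2.05 and 1.83 FPKM in those labelled SK-N-SH control (log2 fold 1.15, SE 0.07, adjusted p = 3.52e-08). In the second line CCNE1 had 4.13, 4.36 and 4.66 FPKM in libraries labelled second line knockdown, against 4.52, 5.67 and 5.09 FPKM in those labelled second line control (log2 fold -0.17, SE 0.07, adjusted p = 0.0446). Its second line groups overlapped, while the SK-N-SH groups stood apart. CCNE2 was 4.84-fold higher in libraries labelled SK-N-SH knockdown (4.48 ± 0.669 FPKM, against 0.926 ± 0.128) and 2.64-fold lower in libraries labelled second line knockdown (1.45 ± 0.198 FPKM, against 3.83 ± 0.186; SD, n = 3 each). CCNE2 shares 37.0% of its exonic length with INTS8 on the opposite strand, and the strand setting of the counting is unknown. INTS8 was at 4.77 FPKM on average, above CCNE2 at 2.67 FPKM, and the CCNE2 values carry that limit.

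**Figure D3:**
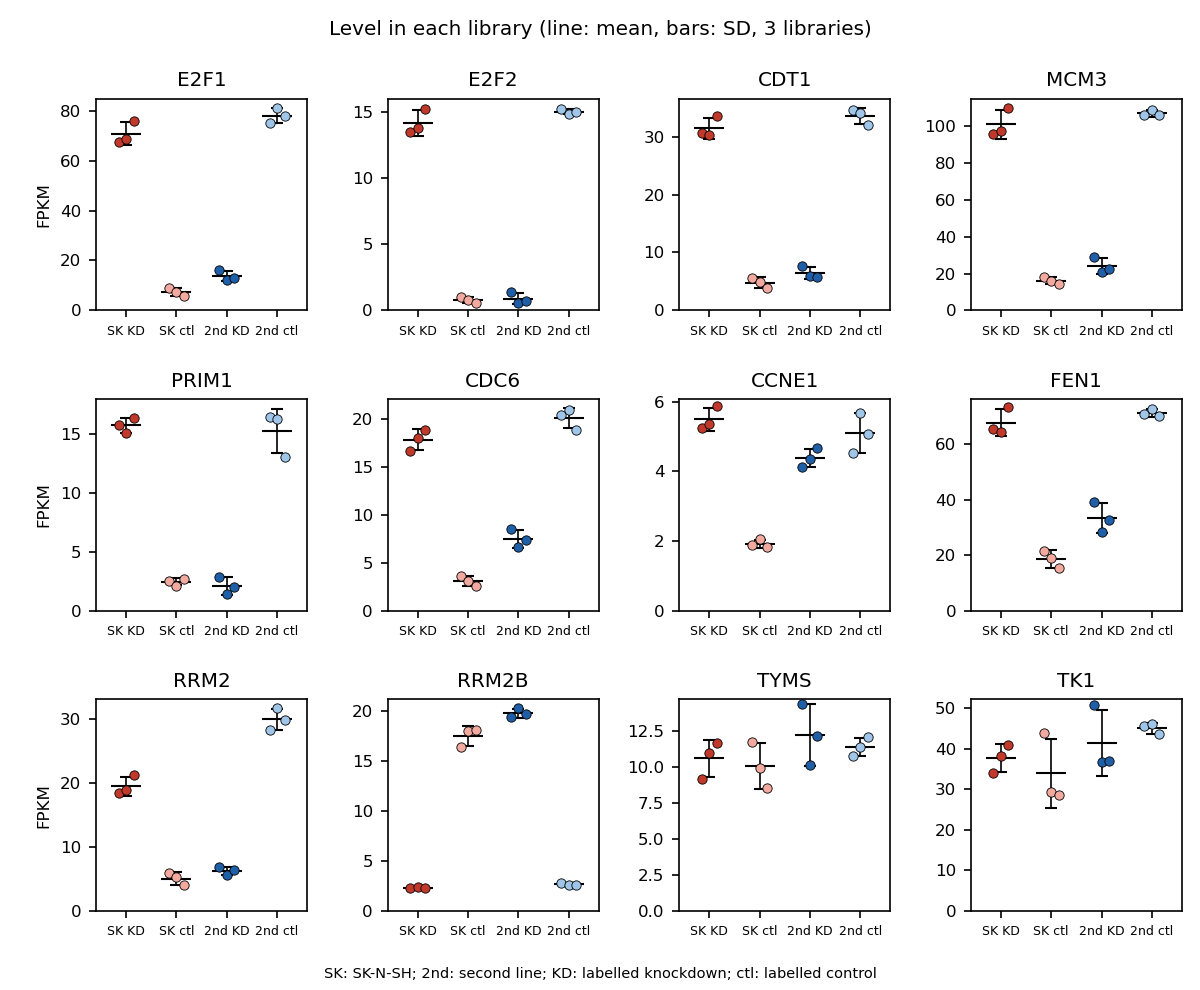
FPKM of 12 genes in each library (points), with the mean (line) and SD (bars) of the 3 libraries of each labelled group; each axis starts at 0. E2F1, E2F2, CDT1, MCM3, PRIM1, CDC6, FEN1 and RRM2 are high in SK-N-SH knockdown and in second line control, RRM2B shows the opposite order, and the groups overlap for TYMS and TK1 within each line.

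All 10 origin licensing genes were higher in libraries labelled SK-N-SH knockdown, by 3.05-fold (MCM7) to 6.57-fold (CDT1), and all 10 were lower in libraries labelled second line knockdown, by 2.48-fold (MCM7) to 5.16-fold (CDT1). CDT1, which brings MCM2-7 to origins (ENSG00000167513, chromosome 16, 88803213 to 88809258, plus strand), stood at 30.7, 30.2 and 33.5 FPKM in libraries labelled SK-N-SH knockdown, against 5.63, 4.90 and 3.83 FPKM in those labelled SK-N-SH control (log2 fold 2.50, SE 0.12, adjusted p = 2.37e-09). CDT1 in the second line had 7.72, 6.01 and 5.75 FPKM in libraries labelled second line knockdown, against 34.6, 34.1 and 32.0 FPKM in those labelled second line control (log2 fold -2.21, SE 0.12, adjusted p = 6.38e-09). Its low groups, from 3.83 to 7.72 FPKM, lay far below its high groups, from 30.2 to 34.6 FPKM. MCM3, a helicase subunit (ENSG00000112118, chromosome 6, 52264009 to 52284881, minus strand), stood at 95.7, 97.3 and 110.1 FPKM in libraries labelled SK-N-SH knockdown, against 18.3, 16.2 and 14.3 FPKM in those labelled SK-N-SH control (log2 fold 2.57, SE 0.11, adjusted p = 1.63e-09). MCM3 in the second line had 29.3, 20.9 and 22.7 FPKM in libraries labelled second line knockdown, against 106, 109 and 106 FPKM in those labelled second line control (log2 fold -2.11, SE 0.11, adjusted p = 8.51e-09). MCM7, the subunit with the smallest ratio, had 152, 154 and 173 FPKM in libraries labelled SK-N-SH knockdown, against 60.1, 50.4 and 46.1 FPKM in those labelled SK-N-SH control (log2 fold 1.60, SE 0.13, adjusted p = 3.93e-07). MCM7 in the second line had 79.0, 53.7 and 57.1 FPKM in libraries labelled second line knockdown, against 156, 157 and 157 FPKM in those labelled second line control (log2 fold -1.32, SE 0.13, adjusted p = 2.15e-06). No library of one group overlapped the other for any of the 3 genes in either line.

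CDC6, the loading ATPase, averaged 17.8 ± 1.10 FPKM in libraries labelled SK-N-SH knockdown, against 3.10 ± 0.511 in those labelled SK-N-SH control, 5.77-fold higher. It averaged 7.52 ± 0.944 FPKM in libraries labelled second line knockdown, against 20.1 ± 1.06 in those labelled second line control, 2.67-fold lower. Of the origin recognition subunits, ORC1 was 5.51-fold higher and 2.92-fold lower, and ORC6 5.88-fold higher and 3.47-fold lower, in SK-N-SH and the second line in that order. The FPKM of the 6 MCM2-7 subunits, summed, averaged 414.7 ± 31.0 in libraries labelled SK-N-SH knockdown and 105.4 ± 17.4 in those labelled SK-N-SH control. The sum averaged 141.8 ± 28.0 in libraries labelled second line knockdown and 437.5 ± 5.46 in those labelled second line control (SD, n = 3 each). Although the subunits form a ring in equal numbers, their FPKM, which is per length, did not stand level: MCM7 was highest and MCM5 lowest in all 4 groups. The gene lengths used differ, at 7338 bases for MCM5 and 4386 for MCM7, so this order of FPKM need not be that of transcripts. MCM7 made up 38.4% of the sum in SK-N-SH knockdown and 49.6% in SK-N-SH control, and 44.6% in second line knockdown and 35.9% in second line control. Geminin (GMNN), which inhibits CDT1, was called in the same directions, and the CDT1 to GMNN ratio of FPKM was 1.05 ± 0.0437 in libraries labelled SK-N-SH knockdown, against 0.739 ± 0.0915 in those labelled SK-N-SH control, and 0.803 ± 0.117 in libraries labelled second line knockdown, against 1.15 ± 0.0646 in those labelled second line control.

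The 6 helicase activation genes were likewise all higher in libraries labelled SK-N-SH knockdown and all lower in libraries labelled second line knockdown. CDC45, which rides with the helicase, led with 25.6, 26.8 and 30.1 FPKM in libraries labelled SK-N-SH knockdown, against 4.20, 4.26 and 3.23 FPKM in those labelled SK-N-SH control (log2 fold 2.55, SE 0.10, adjusted p = 4.81e-10). CDC45 in the second line had 7.35, 5.88 and 5.94 FPKM in libraries labelled second line knockdown, against 28.4, 28.6 and 30.1 FPKM in those labelled second line control (log2 fold -2.03, SE 0.10, adjusted p = 3.20e-09). The groups were widely apart in both lines. GINS4, a subunit of the GINS complex and the smallest of the 6, had 6.05, 6.19 and 6.24 FPKM in libraries labelled SK-N-SH knockdown, against 2.28, 2.05 and 1.72 FPKM in those labelled SK-N-SH control (log2 fold 1.25, SE 0.08, adjusted p = 2.50e-08). GINS4 in the second line had 3.68, 3.37 and 2.98 FPKM in libraries labelled second line knockdown, against 6.10, 6.36 and 6.69 FPKM in those labelled second line control (log2 fold -0.77, SE 0.08, adjusted p = 1.90e-06). Its second line knockdown libraries stood between those of the SK-N-SH control group and the high groups. The other GINS subunits were 4.44-fold higher (GINS1), 6.39-fold higher (GINS2) and 3.38-fold higher (GINS3) in libraries labelled SK-N-SH knockdown. They were 2.80-fold lower, 3.84-fold lower and 3.25-fold lower in libraries labelled second line knockdown. MCM10, an initiation factor, was 5.90-fold higher in libraries labelled SK-N-SH knockdown and 3.85-fold lower in libraries labelled second line knockdown.

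Primase and the replicative polymerases followed the same pattern. PRIM1, the catalytic subunit of primase (ENSG00000198056, chromosome 12, 56731596 to 56752373, minus strand), stood at 15.8, 15.1 and 16.4 FPKM in libraries labelled SK-N-SH knockdown, against 2.51, 2.13 and 2.70 FPKM in those labelled SK-N-SH control (log2 fold 2.29, SE 0.15, adjusted p = 4.28e-08). PRIM1 in the second line had 2.89, 1.41 and 2.01 FPKM in libraries labelled second line knockdown, against 16.5, 16.3 and 13.1 FPKM in those labelled second line control (log2 fold -2.41, SE 0.15, adjusted p = 2.53e-08). It had the largest second line ratio after E2F2, 7.26-fold lower. POLA1, the catalytic subunit of polymerase alpha, was 6.06-fold higher in libraries labelled SK-N-SH knockdown and 4.88-fold lower in libraries labelled second line knockdown. POLA2, its accessory subunit, had the lowest mean of the 42 genes in every group, its libraries ranging from 0.645 FPKM to 4.16 FPKM, and was 5.62-fold higher and 4.35-fold lower in the same comparisons. POLE and POLE2, subunits of the leading strand polymerase epsilon, were 4.58-fold higher and 4.80-fold higher in libraries labelled SK-N-SH knockdown and 3.27-fold lower and 4.47-fold lower in libraries labelled second line knockdown. POLD1, the catalytic subunit of the lagging strand polymerase delta, differed least, with 18.3, 17.4 and 18.0 FPKM in libraries labelled SK-N-SH knockdown, against 9.68, 8.06 and 8.13 FPKM in those labelled SK-N-SH control (log2 fold 0.98, SE 0.08, adjusted p = 3.44e-07). POLD1 in the second line had 11.4, 9.38 and 9.48 FPKM in libraries labelled second line knockdown, against 19.7, 18.0 and 19.6 FPKM in those labelled second line control (log2 fold -0.86, SE 0.08, adjusted p = 1.03e-06). Even so, its groups did not overlap in either line. POLA2 shares 35.1% of its exonic length with AP000944.2 on the same strand, which was at 0.0997 FPKM on average.

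PCNA, the sliding clamp, had the highest level of the 42 genes in all 4 groups. It averaged 208 ± 19.3 FPKM in libraries labelled SK-N-SH knockdown, against 54.2 ± 5.63 in those labelled SK-N-SH control (3.83-fold higher), and 79.4 ± 11.0 FPKM in libraries labelled second line knockdown, against 212 ± 4.11 in those labelled second line control (2.67-fold lower). The subunits of its loader were uneven. RFC4 had 23.1, 23.7 and 22.2 FPKM in libraries labelled SK-N-SH knockdown, against 6.16, 5.26 and 5.02 FPKM in those labelled SK-N-SH control (log2 fold 1.89, SE 0.13, adjusted p = 1.00e-07). RFC4 in the second line had 7.67, 4.42 and 5.79 FPKM in libraries labelled second line knockdown, against 24.7, 26.6 and 23.8 FPKM in those labelled second line control (log2 fold -1.93, SE 0.13, adjusted p = 8.22e-08). RFC2 had 25.1, 25.9 and 28.4 FPKM in libraries labelled SK-N-SH knockdown, against 16.6, 14.4 and 12.8 FPKM in those labelled SK-N-SH control (log2 fold 0.82, SE 0.11, adjusted p = 1.96e-05). RFC2 in the second line had 27.6, 20.6 and 22.2 FPKM in libraries labelled second line knockdown, against 28.9, 29.1 and 29.2 FPKM in those labelled second line control (log2 fold -0.31, SE 0.11, adjusted p = 0.019). Its first second line knockdown library lay within the range of SK-N-SH knockdown, the groups compared did not overlap, and leaving out second line knockdown replicate 2 (adjusted p = 0.0832) or 3 (0.0625) ended the call. RFC3 and RFC5 were 2.65-fold higher and 4.03-fold higher in libraries labelled SK-N-SH knockdown, and 1.86-fold lower and 3.35-fold lower in libraries labelled second line knockdown. RFC2 made up 28.7% of the summed FPKM of RFC2 to RFC5 in SK-N-SH knockdown and 43.3% in SK-N-SH control, and 47.8% in second line knockdown and 29.3% in second line control.

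Of the genes for strand binding and fragment joining, FEN1, the nuclease that trims Okazaki fragments, stood at 65.7, 64.5 and 73.4 FPKM in libraries labelled SK-N-SH knockdown, against 21.5, 19.0 and 15.3 FPKM in those labelled SK-N-SH control (log2 fold 1.82, SE 0.12, adjusted p = 6.99e-08). FEN1 in the second line had 39.2, 28.2 and 32.7 FPKM in libraries labelled second line knockdown, against 70.8, 72.9 and 70.1 FPKM in those labelled second line control (log2 fold -1.08, SE 0.12, adjusted p = 7.14e-06). The groups compared did not overlap, and the second line knockdown libraries all lay above those of SK-N-SH control. LIG1, the ligase that seals the fragments, had 8.46, 8.33 and 9.24 FPKM in libraries labelled SK-N-SH knockdown, against 6.43, 5.47 and 5.13 FPKM in those labelled SK-N-SH control (log2 fold 0.54, SE 0.10, adjusted p = 0.000304). LIG1 in the second line had 7.66, 5.80 and 5.82 FPKM in libraries labelled second line knockdown, against 9.24, 9.18 and 9.76 FPKM in those labelled second line control (log2 fold -0.49, SE 0.10, adjusted p = 0.000589). These groups did not overlap in either line. RPA2, a subunit of the single-strand binding protein, was 2.12-fold higher in libraries labelled SK-N-SH knockdown and 1.49-fold lower in libraries labelled second line knockdown.

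In nucleotide supply 2 of the 4 genes were called in each line, higher in SK-N-SH and lower in the second line. Of all genes tested, 40.7% were called higher in SK-N-SH and 40.2% lower in the second line. RRM2, the small subunit of ribonucleotide reductase, which makes deoxynucleotides (ENSG00000171848, chromosome 2, 10120698 to 10131419, plus strand), stood at 18.3, 18.9 and 21.2 FPKM in libraries labelled SK-N-SH knockdown, against 5.90, 5.24 and 3.99 FPKM in those labelled SK-N-SH control (log2 fold 1.77, SE 0.11, adjusted p = 2.92e-08). RRM2 in the second line had 6.83, 5.59 and 6.41 FPKM in libraries labelled second line knockdown, against 28.3, 31.7 and 29.8 FPKM in those labelled second line control (log2 fold -2.09, SE 0.11, adjusted p = 6.30e-09). RRM1, the large subunit, was 3.20-fold higher in libraries labelled SK-N-SH knockdown and 2.86-fold lower in libraries labelled second line knockdown. TYMS, thymidylate synthase (ENSG00000176890, chromosome 18, 657604 to 673578, plus strand), had 9.20, 11.0 and 11.7 FPKM in libraries labelled SK-N-SH knockdown, against 11.8, 9.91 and 8.56 FPKM in those labelled SK-N-SH control. TYMS in the second line had 14.4, 10.1 and 12.2 FPKM in libraries labelled second line knockdown, against 10.8, 11.4 and 12.1 FPKM in those labelled second line control. Its groups overlapped in both lines, with log2 folds of 0.07 (95% interval -0.22 to 0.36, adjusted p = 0.627) and 0.08 (-0.21 to 0.37, adjusted p = 0.574). TK1, cytosolic thymidine kinase (ENSG00000167900, chromosome 17, 78174075 to 78187233, minus strand), had 33.9, 38.2 and 40.9 FPKM in libraries labelled SK-N-SH knockdown, against 43.7, 29.2 and 28.7 FPKM in those labelled SK-N-SH control. TK1 in the second line had 50.8, 36.6 and 36.8 FPKM in libraries labelled second line knockdown, against 45.5, 46.1 and 43.5 FPKM in those labelled second line control. These overlapped as well, with log2 folds of 0.17 (-0.18 to 0.52, adjusted p = 0.341) and -0.13 (-0.49 to 0.22, adjusted p = 0.457). Without SK-N-SH control replicate 1, TK1 was called higher in SK-N-SH, at a log2 fold of 0.36 (adjusted p = 0.0235). Both intervals exclude the median fold of the 42 genes, in either line. TYMS shares 39.1% of its exonic length with ENOSF1 on the opposite strand, which was at 3.04 FPKM on average, and its value carries that limit.

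In the checkpoint and chromatin assembly role all 4 genes were called in both lines. CHAF1A, the large subunit of the histone chaperone CAF-1, had 24.7, 23.3 and 27.0 FPKM in libraries labelled SK-N-SH knockdown, against 7.21, 6.87 and 5.18 FPKM in those labelled SK-N-SH control (log2 fold 1.82, SE 0.11, adjusted p = 2.97e-08). CHAF1A in the second line had 10.4, 7.96 and 8.31 FPKM in libraries labelled second line knockdown, against 26.1, 25.4 and 25.9 FPKM in those labelled second line control (log2 fold -1.44, SE 0.11, adjusted p = 2.22e-07). CHAF1B, its partner, was 2.57-fold higher in libraries labelled SK-N-SH knockdown and 1.72-fold lower in libraries labelled second line knockdown. CLSPN, a mediator of the replication checkpoint, was 3.79-fold higher and 3.10-fold lower in the same comparisons. UHRF1, which guides maintenance DNA methylation to new strands, differed least of the 4 in SK-N-SH, while CHAF1B did in the second line. UHRF1 had 28.9, 29.6 and 29.0 FPKM in libraries labelled SK-N-SH knockdown, against 16.7, 14.6 and 12.2 FPKM in those labelled SK-N-SH control (log2 fold 0.97, SE 0.09, adjusted p = 1.45e-06). UHRF1 in the second line had 22.3, 18.3 and 20.4 FPKM in libraries labelled second line knockdown, against 35.9, 35.5 and 37.0 FPKM in those labelled second line control (log2 fold -0.80, SE 0.09, adjusted p = 7.45e-06). All 4 groups of UHRF1 lay in ranges of their own.

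**Figure D4:**
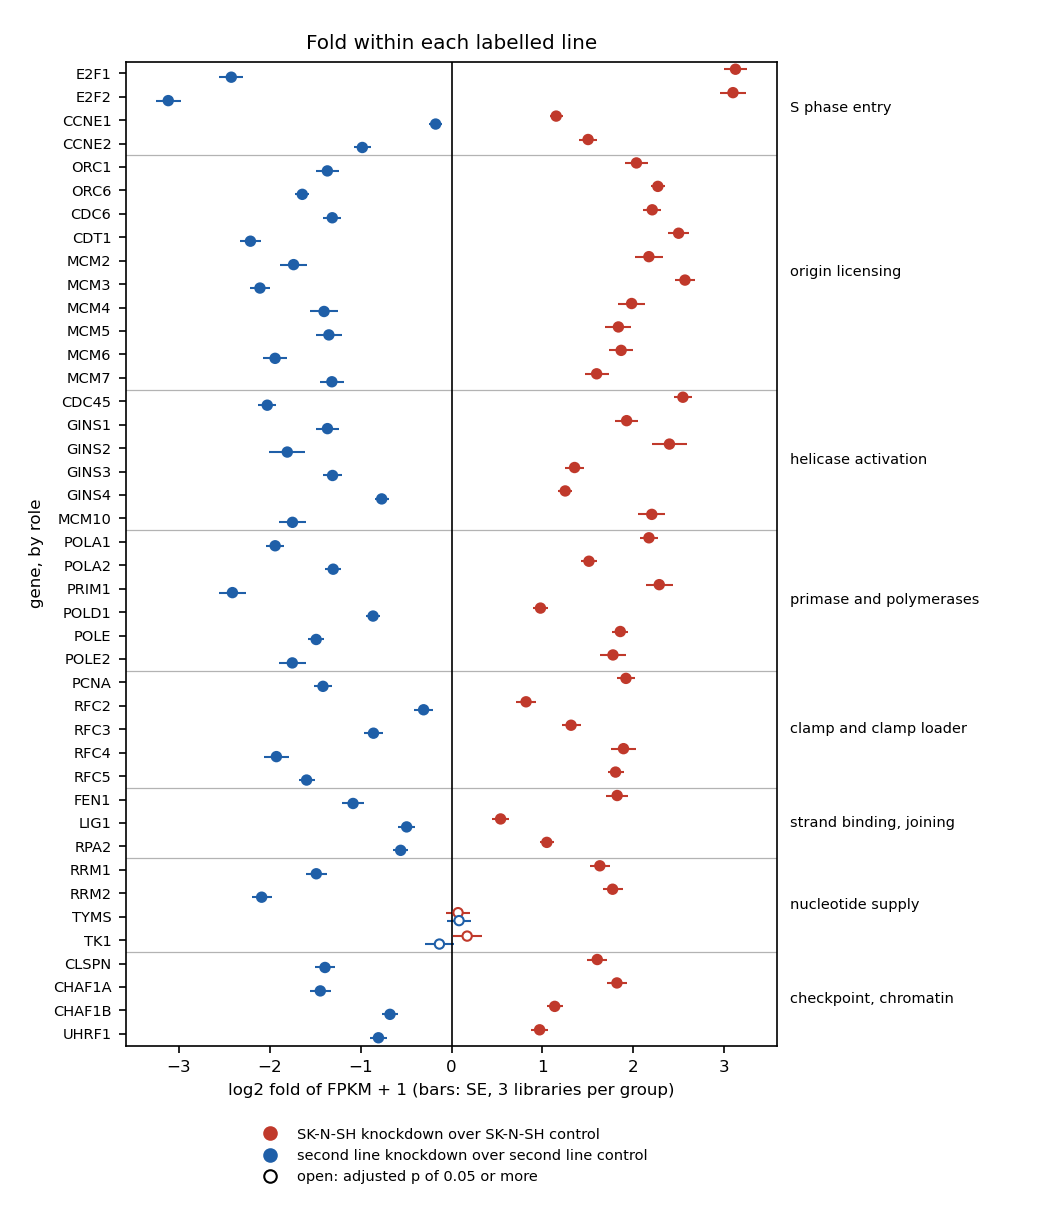
Log2 fold of FPKM + 1 for each of the 42 genes (rows, by role), SK-N-SH knockdown over SK-N-SH control (red) and second line knockdown over second line control (blue); bars are the SE from limma, and open points did not pass. Red points lie right of 0 and blue points left of it for all genes but TYMS and TK1, whose points lie near 0.

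The difference between the lines was tested as an interaction, the log2 fold in the second line minus that in SK-N-SH. It was negative and past the threshold for 40 of the 42 genes, while 84.9% of all genes tested were called, 43.1% negative and 41.8% positive. The 5 largest were E2F2 (difference -6.21, SE 0.20, adjusted p = 4.04e-11), E2F1 (difference -5.55, SE 0.19, adjusted p = 6.45e-11), CDT1 (difference -4.71, SE 0.16, adjusted p = 9.53e-11), PRIM1 (difference -4.70, SE 0.21, adjusted p = 8.54e-10) and MCM3 (difference -4.68, SE 0.16, adjusted p = 8.81e-11). Of the 42 genes TYMS (0.01, 95% interval -0.40 to 0.42) and TK1 (-0.30, -0.80 to 0.19) did not pass. Both the size and the sign of this difference rest on the SK-N-SH labels that TSPYL5 contradicts. With the SK-N-SH ratio turned to control over knockdown, an alternative chosen after seeing the data, the median over the 42 genes was 0.40, against -3.31 as labelled. Turned, 16 genes were called positive, 0 negative and 26 did not pass, while 19.0% of all genes were called positive and 12.3% negative. By construction the turned difference is also the sum of the log2 folds in both comparisons across the labels, given below. Its calls and ranking therefore repeat those comparisons and are no separate result. The ranking changed too, with CCNE1 (0.98, adjusted p = 0.000137), CDC6 (0.90, 0.001), FEN1 (0.74, 0.00943), E2F1 (0.70, 0.0154) and ORC1 (0.67, 0.0164) at the top. E2F2 (-0.020, 95% interval -0.45 to 0.41) and PRIM1 (-0.13, -0.59 to 0.34) did not pass, nor did CDT1 (0.29, -0.077 to 0.65) and MCM3 (0.46, adjusted p = 0.0512).

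Median folds of genes with and without an E2F spelling in the promoter lay close together. In SK-N-SH the median log2 fold was 1.87 over the 21 genes with the letters and 1.81 over the 16 without. In the second line the medians were -1.41 and -1.47. TYMS holds the letters, as printed above, and passed in neither line, whereas PRIM1 holds none of the 4 spellings and had one of the largest differences. These medians are descriptions and no test was made of them.

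Across the labels, the 2 groups with high levels differed in few of the 42 genes, about as over all genes. Comparing libraries labelled SK-N-SH knockdown with those labelled second line control, 0 of the 42 genes were called higher and 1 was called lower, while 2.26% of all genes tested were called higher and 3.12% lower. The median log2 fold of the 42 genes was -0.08, against 0.00 over all genes. The gene called was RRM2, at 19.5 ± 1.5 FPKM in libraries labelled SK-N-SH knockdown and 29.9 ± 1.67 in those labelled second line control (log2 fold -0.60, SE 0.11, adjusted p = 0.00976), with no overlap of libraries. Every library labelled SK-N-SH knockdown was lower for 9 of the 42 genes, and for 14.2% of all genes. At an unadjusted p under 0.05, 0 were higher and 2 were lower. The next largest folds were UHRF1 (-0.30, adjusted p = 0.097), MCM6 (-0.28, 0.286), TK1 (-0.26, 0.456) and CCNE2 (0.17, 0.376). UHRF1 averaged 29.2 ± 0.341 FPKM in libraries labelled SK-N-SH knockdown and 36.1 ± 0.776 in those labelled second line control, with ranges that did not overlap. MCM6 averaged 42.6 ± 2.67 and 51.8 ± 1.96 FPKM in the same groups. A voom fit to the recovered reads also called UHRF1 lower, as did the model without SK-N-SH control replicate 1 or 3, and a fit to these 2 groups alone called UHRF1 and MCM6 lower. The ratio of RRM2 to RRM1 FPKM, small over large subunit, was 0.334 ± 0.00945 in libraries labelled SK-N-SH knockdown and 0.495 ± 0.0235 in those labelled second line control. The 95% interval of the log2 fold included 0 for E2F1 (-0.43 to 0.15), MCM3 (-0.34 to 0.17) and PCNA (-0.26 to 0.19).

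More genes were called between the 2 groups with low levels. Between libraries labelled second line knockdown and those labelled SK-N-SH control, 25 of the 42 genes were called higher, 0 lower and 17 did not pass, while 26.9% of all genes tested were called higher and 17.2% lower. The median log2 fold of the 42 genes was 0.44, against 0.02 over all genes. The split of all calls depended on scaling, with 60.9% of calls higher as deposited, 39.0% with libraries rescaled to the same sum and 40.3% with the same upper quartile, whereas 23 and 24 of the 42 genes were called higher under these scalings and 0 lower. The largest fold was that of CDC6, with 8.53, 6.66 and 7.38 FPKM in libraries labelled second line knockdown, against 3.62, 3.06 and 2.60 FPKM in those labelled SK-N-SH control, 2.43-fold higher (log2 fold 1.06, SE 0.10, adjusted p = 1.92e-05). It was followed by CCNE1 (4.39 ± 0.264 FPKM, against 1.92 ± 0.117; log2 fold 0.88, SE 0.07, adjusted p = 9.78e-06), E2F1 (13.8 ± 1.97 FPKM, against 7.33 ± 1.64; log2 fold 0.84, SE 0.13, adjusted p = 0.000449), FEN1 (33.4 ± 5.54 FPKM, against 18.6 ± 3.11; log2 fold 0.81, SE 0.12, adjusted p = 0.000416) and GINS2 (6.08 ± 1.77 FPKM, against 3.36 ± 1.21; log2 fold 0.71, SE 0.20, adjusted p = 0.0126). The libraries did not overlap between the groups for any of these 5 genes, as for 30.0% of all genes in this direction, and GINS2 lost its call without SK-N-SH control replicate 3 (adjusted p = 0.0509). Only CDC6 and CCNE1 were at least 2-fold higher by the ratio of means. On the scale of log2(FPKM + 1), 1 of the 42 genes was called at least 2-fold higher, and 200 of all 15856 genes tested.

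By role, the calls in that comparison are listed here, where 26.9% of all genes tested were called higher. They comprised 3 of 4 genes of S phase entry, 8 of 10 of licensing and 5 of 6 of helicase activation. Among the later steps they comprised 1 of 6 of primase and the polymerases (POLE), 3 of 5 of clamp and loader, 2 of 3 of strand binding and joining, 0 of 4 of nucleotide supply and 3 of 4 of checkpoint and chromatin assembly. No test was made between roles, which hold too few genes each for a comparison. Genes that did not pass included E2F2 (0.06, 95% interval -0.25 to 0.37), GINS3 (0.00, -0.22 to 0.22), POLA2 (0.09, -0.10 to 0.29) and PRIM1 (-0.17, -0.50 to 0.15). Of the 25 calls, 17 held in every alternative, namely E2F1, CCNE1, ORC1, ORC6, CDC6, MCM3, MCM4, MCM5, CDC45, GINS4, PCNA, RFC2, RFC3, FEN1, RPA2, CHAF1B and UHRF1. The share of calls that held was not counted over all genes, so it cannot be called particular to these. Both comparisons across the labels use the library groups of the within-line comparisons, so they are not independent of them.

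**Figure D5:**
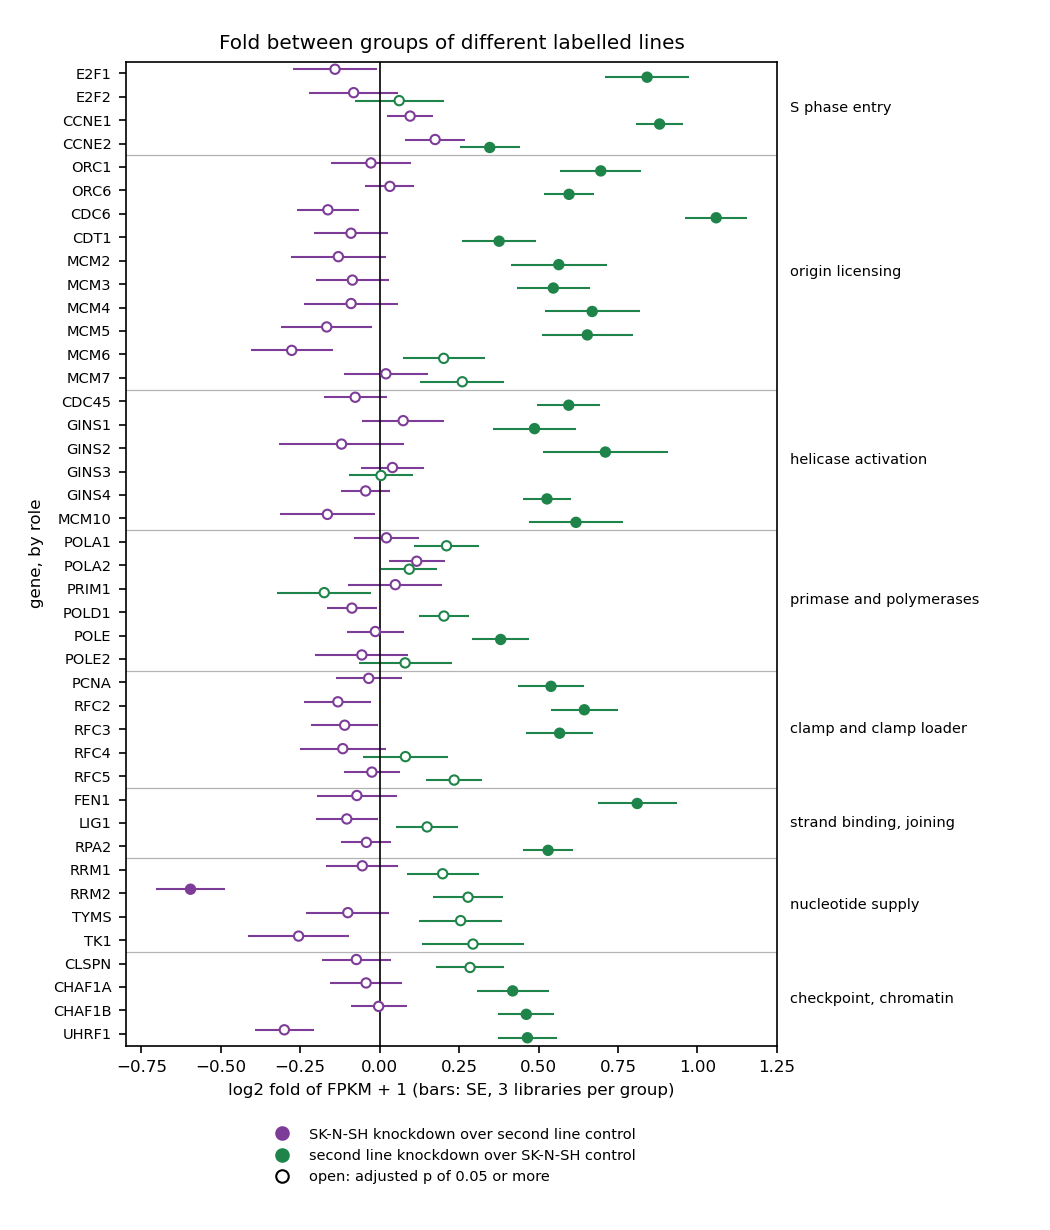
Log2 fold of FPKM + 1 for each of the 42 genes (rows, by role), SK-N-SH knockdown over second line control (purple) and second line knockdown over SK-N-SH control (green); bars are the SE from limma, and open points did not pass. Purple points lie around 0 with RRM2 the one filled, and green points lie mostly right of 0, up to 1.06 for CDC6.

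Control against control, the second line was higher for 41 of the 42 genes and lower for 0, with TYMS not passing (0.17, 95% interval -0.12 to 0.46), while 40.7% of all genes tested were called higher and 38.9% lower. The median log2 fold was 1.87. E2F1 had the largest log2 fold of FPKM + 1 (3.27, SE 0.13, adjusted p = 6.36e-10), while by the ratio of mean FPKM E2F2 was the largest, at 19.2-fold. TK1 was called at a small fold (log2 fold 0.43, SE 0.16, adjusted p = 0.0287). TK1 was not called without SK-N-SH control replicate 2 (adjusted p = 0.106) or 3 (0.112) or without second line control replicate 1 (0.064) or 2 (0.0686), nor with no filter on low values (0.0616). The means of 31 genes ran, high to low, from second line control through SK-N-SH knockdown and second line knockdown to SK-N-SH control, and 8 more had the first 2 of these exchanged. As the comparisons above show, the first 2 differed past the threshold only for RRM2, and the last 2 for 25 genes. A mean of at least 10 FPKM was reached by 33 genes in SK-N-SH knockdown and 12 in SK-N-SH control, and by 17 in second line knockdown and 34 in second line control.

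Within the groups the genes moved together between libraries in FPKM as deposited. Of the 42 genes, 36 were highest in library 3 of SK-N-SH knockdown, where 42.2% of all genes tested were highest. The FPKM of all genes summed to 332022 in that library, against 289083 in library 1 and 300741 in library 2. None of the counts here was rescaled for such totals. In SK-N-SH control, 37 were highest in library 1 (41.5% of all genes) and 38 lowest in library 3 (36.3%). Library 1 of second line knockdown was highest for 39 (35.3%). In second line control, library 2 was highest for 24 (34.4%). All genes there summed to 306430 FPKM, against 304954 in library 1 and 293501 in library 3. The summed FPKM of the 42 genes ran from 1303 to 1472 in SK-N-SH knockdown and from 334 to 450.1 in SK-N-SH control, and from 482 to 646 in second line knockdown and from 1434 to 1480.4 in second line control. As deposited, the ranges of the 2 low groups did not overlap, nor did those of a low and a high group. The FPKM of all genes summed to 294360 to 303986 in SK-N-SH control, against 323992 to 337649 in second line knockdown. The sums of the 42 genes were not rescaled for this, so the gap between the 2 low groups rests on the deposited scaling.

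A list of 45 other replication genes, none of them among the 42, was less uniform. In SK-N-SH 36 were higher, 6 lower and 3 did not pass (median log2 fold 1.18), and in the second line 8 were higher, 34 lower and 3 did not pass (median -0.97). Over all genes 40.7% were higher and 39.0% lower in SK-N-SH, and 39.9% and 40.2% in the second line. CDC7, the kinase that fires the loaded helicase, was the largest, with 23.6, 22.6 and 22.6 FPKM in libraries labelled SK-N-SH knockdown, against 2.49, 2.38 and 2.23 FPKM in those labelled SK-N-SH control (log2 fold 2.83, SE 0.12, adjusted p = 9.77e-10). CDC7 in the second line had 3.68, 2.06 and 2.64 FPKM in libraries labelled second line knockdown, against 24.6, 27.1 and 24.0 FPKM in those labelled second line control (log2 fold -2.81, SE 0.12, adjusted p = 9.73e-10). The groups were far apart in both lines. DNA2, a nuclease of fragment processing, was 5.89-fold higher in libraries labelled SK-N-SH knockdown and 5.08-fold lower in libraries labelled second line knockdown. GMNN was 4.62-fold higher and 3.59-fold lower and TOP2A, the topoisomerase that untangles DNA, 3.44-fold higher and 3.76-fold lower, each in the same 2 comparisons. Across the labels, 0 of the 45 were called for SK-N-SH knockdown against the other line's control, where 2.26% of all genes were higher and 3.12% lower. For second line knockdown against the other line's control 18 were higher and 2 lower, where 26.9% and 17.2% of all genes were.

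Some replication genes had the opposite pattern. RRM2B, the ribonucleotide reductase subunit induced by p53 and used outside S phase, had 2.24, 2.41 and 2.30 FPKM in libraries labelled SK-N-SH knockdown, against 16.3, 17.9 and 18.1 FPKM in those labelled SK-N-SH control (log2 fold -2.48, SE 0.05, adjusted p = 1.26e-12). RRM2B in the second line had 19.3, 20.2 and 19.7 FPKM in libraries labelled second line knockdown, against 2.73, 2.62 and 2.60 FPKM in those labelled second line control (log2 fold 2.51, SE 0.05, adjusted p = 1.05e-12). It was thus 7.54-fold lower in libraries labelled SK-N-SH knockdown and 7.46-fold higher in libraries labelled second line knockdown, against the direction of RRM2. The ratio of RRM2B to RRM2 FPKM was 0.119 ± 0.00984 in libraries labelled SK-N-SH knockdown and 3.58 ± 0.894 in those labelled SK-N-SH control, and 3.17 ± 0.403 in libraries labelled second line knockdown and 0.0888 ± 0.00698 in those labelled second line control. RRM2B therefore had the higher FPKM of the 2 small subunits in the low groups, and RRM2 in the high groups. POLD4, the smallest subunit of polymerase delta, was 5.24-fold lower in libraries labelled SK-N-SH knockdown (1.07 ± 0.0323 FPKM, against 5.64 ± 0.897) and 5.15-fold higher in libraries labelled second line knockdown (4.09 ± 0.199 FPKM, against 0.795 ± 0.0965). TK2, the mitochondrial thymidine kinase, was 4.86-fold lower and 4.38-fold higher in the same comparisons. DONSON, a factor of helicase assembly, was 1.45-fold lower and 1.31-fold higher. PRIM2, the large primase subunit, did not pass in SK-N-SH (0.01, 95% interval -0.22 to 0.25) and was 1.75-fold higher in libraries labelled second line knockdown, unlike its partner PRIM1. PRIM2 has near-identical copies in the genome, so its level is uncertain.

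The last list held 23 genes of the E2F, RB and CDK2 circuit. In SK-N-SH 17 were higher, 5 lower and 1 did not pass, and in the second line 4 were higher, 15 lower and 4 did not pass, where about as many of all genes were higher as lower (40.7% and 39.0% in SK-N-SH, 39.9% and 40.2% in the second line). CDKN1A, the p53-induced CDK inhibitor p21, had 3.65, 3.94 and 3.93 FPKM in libraries labelled SK-N-SH knockdown, against 218, 358 and 309.8 FPKM in those labelled SK-N-SH control (log2 fold -5.91, SE 0.14, adjusted p = 5.67e-12). CDKN1A in the second line had 318, 339 and 338 FPKM in libraries labelled second line knockdown, against 2.44, 2.11 and 2.14 FPKM in those labelled second line control (log2 fold 6.69, SE 0.14, adjusted p = 1.90e-12). It was high where the replication genes were low, with no library of one kind near the other. The other inhibitors of its family went with the replication genes. CDKN1B, or p27, was 3.23-fold higher in libraries labelled SK-N-SH knockdown and 4.03-fold lower in libraries labelled second line knockdown. CDKN1C, or p57, had 5.09, 5.96 and 4.94 FPKM in libraries labelled SK-N-SH knockdown, against 0.520, 0.149 and 0.475 FPKM in those labelled SK-N-SH control (log2 fold 2.20, SE 0.10, adjusted p = 2.78e-09). CDKN1C in the second line had 0.0672, 0.143 and 0.0675 FPKM in libraries labelled second line knockdown, against 4.70, 4.33 and 4.85 FPKM in those labelled second line control (log2 fold -2.36, SE 0.10, adjusted p = 1.39e-09), with as few as 3 reads in a library. SKP2, which targets p27 for destruction, was 3.12-fold higher and 3.45-fold lower, the phosphatase gene CDC25A 5.03-fold higher and 2.21-fold lower, and the kinase gene WEE1 3.01-fold higher and 3.08-fold lower, in SK-N-SH and the second line in that order.

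E2F family members differed in direction. E2F3, an activator like E2F1 and E2F2, was 1.81-fold higher in libraries labelled SK-N-SH knockdown (16.4 ± 0.158 FPKM, against 9.06 ± 0.833) and 1.65-fold lower in libraries labelled second line knockdown (10.1 ± 1.09 FPKM, against 16.7 ± 0.229). E2F8, an atypical repressor, was 3.56-fold higher and 3.05-fold lower in the same comparisons. E2F7, the other atypical repressor, had 4.93, 5.39 and 5.39 FPKM in libraries labelled SK-N-SH knockdown, against 6.72, 9.39 and 8.21 FPKM in those labelled SK-N-SH control (log2 fold -0.54, SE 0.10, adjusted p = 0.000519). E2F7 in the second line had 16.2, 19.4 and 19.7 FPKM in libraries labelled second line knockdown, against 3.60, 3.87 and 4.13 FPKM in those labelled second line control (log2 fold 1.99, SE 0.10, adjusted p = 5.78e-09). It was lower in libraries labelled SK-N-SH knockdown and higher in libraries labelled second line knockdown, against E2F8. The ratio of E2F7 to E2F1 FPKM was 0.0741 ± 0.00393 in libraries labelled SK-N-SH knockdown and 1.16 ± 0.364 in those labelled SK-N-SH control, and 1.36 ± 0.309 in libraries labelled second line knockdown and 0.0495 ± 0.00290 in those labelled second line control. E2F4, known for repression in resting cells, was 1.51-fold lower in libraries labelled SK-N-SH knockdown and 1.94-fold higher in libraries labelled second line knockdown. RB1, the retinoblastoma gene, did not pass in SK-N-SH (-0.04, 95% interval -0.18 to 0.09) and was 1.21-fold higher in libraries labelled second line knockdown. LIN37, of the complex that represses cell cycle genes in quiescence, was 1.69-fold lower in libraries labelled SK-N-SH knockdown, at 24 to 79 reads a library. Its SK-N-SH groups overlapped, with SK-N-SH knockdown replicate 3 at 1.017 FPKM and SK-N-SH control replicate 2 at 1.013 FPKM. LIN37 did not pass in the second line (0.29, 95% interval -0.01 to 0.59). Across the labels, 2 of the 23 were called higher and 0 lower for SK-N-SH knockdown against the other line's control, where 2.26% of all genes were higher and 3.12% lower. CDKN1A was among the 2 (adjusted p = 0.0316), at 3.84 ± 0.164 FPKM in libraries labelled SK-N-SH knockdown, against 2.23 ± 0.180 in those labelled second line control. For second line knockdown against the other line's control 11 were higher and 4 lower, the lower share close to the 17.2% of all genes (26.9% were higher), with E2F7 higher (log2 fold 1.10, SE 0.10, adjusted p = 2.14e-05) and CDKN1A not passing (0.20, 95% interval -0.11 to 0.50).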

How the data were processed

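RNA-seq libraries of 2 neuroblastoma lines were made from 3 µg of total RNA with a NEBNext Ultra RNA kit, per the labels' protocols. The submitters' processing notes list the tools HISAT2 2.0.5 and featureCounts 1.5.0-p3 and, as genome build, mm10. The deposited table holds FPKM, reads scaled by gene length and library size by the authors. Its 58735 genes are human, and the coordinates of all of them match GENCODE release 29 (GRCh38), the build used in the text. No strand setting of the counting step is given in these sources, so overlapping genes on opposite strands may share reads. Within each library, 100% of values, multiplied by gene length, came out as whole multiples of what 1 read is worth (tolerance 0.05 reads), which recovered the reads per gene. Of the 42 genes 19 share exonic bases with another gene and 7 have named pseudogenes, which were at 0.0514 FPKM or less.

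A gene was tested if its FPKM averaged 0.5 or more over the 12 libraries, which left 15856, and all 42 genes passed that filter. One model of 4 group means was fitted to log2(FPKM + 1) by limma (version 3.58.1, R 4.3.3; empirical Bayes, intensity trend, two-sided), and p-values were adjusted by Benjamini-Hochberg over all genes within each comparison, at a threshold of 0.05. This scale understates log2 folds of genes with low FPKM, so the text gives folds as ratios of group mean FPKM. The steps were tested on simulated data. The 10 alternatives, the omission of each of the 12 libraries and 1 alternative chosen after seeing the data (the SK-N-SH ratio turned) are given in the closing section, and 0 sample columns were left out. Groups come from titles and genotype labels. The 42 genes, the other lists and the motifs were chosen with earlier results of these data known. Of the lists first drawn up, 1 replication gene outside the 42 and 1 noradrenergic marker are not reported here and enter no count or sum over a list.

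Text names TSPYL5, MYCN, RRM2B, CDKN1A, E2F3, E2F7 and E2F8 whatever their result. Values per library are given for the genes with the largest and smallest absolute log2 fold in each role, averaged over both within-line comparisons, and for those not passing within a line. The 5 largest in each comparison across lines, and up to 4 genes per direction of the 2 other lists, are also named. Promoters are RefSeq sequences on GRCh38.p14.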

Additional observations from a re-analysis of the deposited data

Results flagged for a closer look

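The fold of the libraries labelled knockdown over those labelled control differed between the lines as labelled, by a test of the difference itself, for 40 of the 42 genes, against 84.9% of all genes tested in either direction. The 5 largest differences, as the log2 fold in the second line minus that in SK-N-SH, were -6.21 for E2F2 (limma adjusted p = 4.04e-11), -5.55 for E2F1 (6.45e-11), -4.71 for CDT1 (9.53e-11), -4.70 for PRIM1 (8.54e-10) and -4.68 for MCM3 (8.81e-11). In each of the 5, all 3 libraries labelled knockdown were higher than the controls in SK-N-SH and all 3 were lower in the second line. Taken line by line, that held for 41.6% of all genes in SK-N-SH and for 40.8% in the second line. These 5 were picked as the largest differences, so the separation of their libraries adds nothing to the test. In SK-N-SH the targeted gene TSPYL5 was itself higher in the libraries labelled knockdown, so both the size and the sign of these differences depend on labels that it contradicts. With the SK-N-SH ratio turned, the same 5 values were -0.020 for E2F2, 0.70 for E2F1, 0.29 for CDT1, -0.13 for PRIM1 and 0.46 for MCM3, of which E2F1 passed (adjusted p = 0.0154).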

How the results depend on the processing

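Of the 42 genes, 40 were called higher in SK-N-SH under each of the 10 alternatives, and 40 to 41 when single libraries were left out. In the second line 39 to 40 were lower under these alternatives (CCNE1 lost its call in 4 of them) and 38 to 40 when single libraries were left out, and for the difference between lines and control against control the ranges were 40 to 41. For SK-N-SH knockdown against the other line's control the 1 gene called lower became 2 with voom on the recovered reads and 3 with only the groups compared. All genes called there numbered 854, and 469 to 637 with 1 library left out. For second line knockdown against the other line's control 18 were higher with only the groups compared, which leaves fewer samples to estimate the spread, and 22 to 31 with 1 library left out, with 0 to 1 lower. The 1 was PRIM1, without second line knockdown replicate 1. The log2 fold of TYMS, which was not called, turned negative in the second line with libraries scaled to 1 sum (-0.049) and the same upper quartile (-0.0094), and with 1 library left out ran from -0.030 (without SK-N-SH control replicate 3) to 0.18 in SK-N-SH and from -0.034 (without second line knockdown replicate 1) to 0.20 in the second line. The cause was not tested. Turning the SK-N-SH ratio, chosen after seeing the data, changed the difference between lines from 40 genes negative to 0 negative and 16 positive, and from 13458 to 4960 of all genes called, with E2F1 at 0.70, CDT1 at 0.29 and MCM3 at 0.46, by construction the sum of the 2 labelled folds. Control against control, 40 to 41 were higher under the 10 alternatives. Scaling to 1 sum moved the median of all genes by -0.12 in the second line comparison, by -0.10 for second line knockdown against the other line's control and by -0.11 for the difference between lines.

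The replicate numbers were not taken as pairs, since same-numbered libraries of different groups correlated at -0.0751 to 0.102 in their deviations from group means. With the replicate number as a block, 40 genes were higher in SK-N-SH, 40 lower in the second line, 1 lower for SK-N-SH knockdown against the other line's control, 26 higher for second line knockdown against the other line's control, 41 higher in control against control and 40 negative for the difference.

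Recovered reads of 52 to 11879 a library stand behind each of the 42 values, so counting error is widest for E2F2, PRIM1, POLE2 and CCNE2 in the low groups.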
